A study of Mus musculus with 4 samples.

Results

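The genes described here are 54 genes of the cell division cycle, taken by name from the 52636 gene lines of the table. They form 3 groups: 22 genes that copy DNA or supply its building blocks, 10 regulators of the passage from G1 into S phase (G1/S), and 22 genes of G2 and mitosis. The DNA replication genes and the G1/S regulators are the S-phase side of the cycle, and the mitosis genes are the M-phase side. All 54 were among the 11444 genes with enough counts for a test.

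The cells were Hoxb8 cells, a mouse line named for the homeobox gene Hoxb8, which is used to immortalise myeloid progenitors. One group carried an empty vector (EV, 2 libraries) and the other expressed DNMT3A R882H (R882H, 2 libraries), a substitution in the de novo DNA methyltransferase DNMT3A that recurs in acute myeloid leukaemia. The labels name no further allele, agent, time or age for either group. The sources used here do not give the promoter of the vector, the number of clones behind each group or the origin of the replicates, so each p-value measures the spread between these libraries, which may be technical. The comparison asked whether transcripts of the division cycle differed between the R882H and the EV libraries, whose cells may also differ in other ways. The protocol reads tags at the 3′ end of polyadenylated RNA, so a count stands for a transcript whatever its length, and levels of different genes are given per tag. Levels are CPM, counts scaled to a common library size by the TMM method, and fold changes are R882H over EV on the log2 scale ± SE. A gene was called higher or lower where edgeR's quasi-likelihood test gave a Benjamini-Hochberg adjusted p under 0.05 over all tested genes. In bulk RNA, fewer cells in a phase of the cycle and less of a transcript per cell cannot be told apart.

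DNA is copied once per cycle. In G1, Cdc6 and Cdt1 load the ring-shaped MCM helicase onto origins, and in S phase Cdc45 and the GINS complex turn the ring into a moving helicase that polymerases follow. Entry into S phase is set by D-type cyclins with Cdk4 and Cdk6 and by E-type cyclins with Cdk2, which free E2F factors from the retinoblastoma protein. In mitosis, cyclin B with Cdk1 drives chromosome condensation and spindle assembly, a checkpoint of Bub kinases waits for attachment of every kinetochore, and Cdc20 then directs the destruction of cyclins. Transcription of the S-phase genes is classically tied to E2F sites, and that of the mitotic genes to the cell cycle homology region (CHR) and CCAAT boxes. Cycling myeloid progenitors transcribe both sets.

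The libraries held 5470330 and 5605092 counts in EV and 5921985 and 5847609 in R882H. Mouse Dnmt3a had 264 and 270 counts in EV and 254 and 239 in R882H, a log2 fold change of -0.19 ± 0.15 that was not called. A 3′ tag checks the label only where the vector carries the 3′ end of the mouse gene, which the labels do not say. Hoxb8 itself had 25, 44, 15 and 4 counts in the 2 EV and then the 2 R882H libraries and was called lower. The same limit holds here. An introduced Hoxb8 is counted only where it carries the 3′ end of the mouse gene, so these counts may not give its total level. Over all 11444 tested genes, 19.3% were called higher and 19.4% lower, and the numbers of called markers below stand beside these shares. Of 14 myeloid progenitor markers, all tested, 5 were called higher and 3 lower (Cebpa, Gata2 and Csf2ra). The summed level of the 14 was 4009 and 3977 CPM in EV and 5955 and 5957 CPM in R882H, and Mpo (myeloperoxidase) alone went from 30.4 and 34.9 CPM to 1213 and 1270 CPM (5.25 ± 0.17), while Cd34 stood at 0.08 ± 0.14. All 9 tested B-lineage markers of 11 were called higher (676.3 and 679.0 CPM in sum in EV, 1874 and 1868 in R882H), as were all 4 tested mast cell and basophil markers of 8 (51.0 and 50.8 CPM, then 384.3 and 409.4). Of 6 megakaryocyte markers, 4 were tested. Pf4 and Ppbp were called lower, Itga2b was called higher (1.35 ± 0.38) and Gp9 was not called (0.41 ± 0.35). The sum of the 6 was 1060.0 and 874.3 CPM in EV and 27.6 and 23.0 CPM in R882H. Most of it in EV was Pf4, with 1033.4 and 843.9 CPM in EV and 15.1 and 10.5 CPM in R882H. Erythroid markers summed to between 8.78 and 14.1 CPM with 4 of 9 at 0 in every library, and fibroblast and epithelial markers were at 0 for 5 of 6. T-lineage markers, 5 of 8 at 0, summed to 8.80 and 11.5 CPM in EV and 1.34 and 1.76 CPM in R882H. Lck had 36 and 47 counts in EV and 7 and 5 in R882H, and Tcf7 had 12 and 18, then 1 and 4. Lck, Tcf7, Ppbp, Pax5, Prss34, Vpreb3 and also Hoxb8 had enough counts for a test in 1 group only. The direction of their calls was therefore largely fixed in advance, and the numbers of called markers carry this limit. Counts of the Y-linked gene Ddx3y were 0 and 2 in EV and 65 and 41 in R882H, whereas Xist had at least 253.8 CPM in every library. Eif2s3y, also Y-linked, had 1 and 0 counts in EV and 26 and 29 in R882H, and Uty had 0 and 0, then 12 and 10. Why the Y-linked counts differed was not tested. A difference in the cells behind the groups cannot be told apart from the variant. The part of these marker differences in the values of the division-cycle genes was not tested.

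The sequence just upstream of 5 called members is shown because these windows hold the letters through which S-phase and mitotic genes are classically described. Each runs 5′ to 3′ from 250 bases before to 50 bases after the annotated start site and comes from RefSeq on GRCm38.p6. Capitals mark the letters searched on both strands: TTTGGCGC, TTTCCCGC or TTTCGCGC for E2F, TTTGAA for the CHR, and CCAAT. A match on the other strand appears as its reverse complement, such as ATTGG for CCAAT. The windows are chr1:128359656-128359955 (minus strand) for Mcm6, chr12:24708004-24708303 (plus) for Rrm2, chr4:136172024-136172323 (plus) for E2f2, chr2:118597961-118598260 (plus) for Bub1b and chr10:69352863-69353162 (minus) for Cdk1.
Mcm6: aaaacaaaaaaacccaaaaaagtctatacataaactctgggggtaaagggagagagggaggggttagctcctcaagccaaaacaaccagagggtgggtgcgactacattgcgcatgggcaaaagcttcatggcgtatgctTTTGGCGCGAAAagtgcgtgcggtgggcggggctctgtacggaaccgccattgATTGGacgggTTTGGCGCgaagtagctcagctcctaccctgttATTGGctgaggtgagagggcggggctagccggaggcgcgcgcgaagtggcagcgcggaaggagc
Rrm2: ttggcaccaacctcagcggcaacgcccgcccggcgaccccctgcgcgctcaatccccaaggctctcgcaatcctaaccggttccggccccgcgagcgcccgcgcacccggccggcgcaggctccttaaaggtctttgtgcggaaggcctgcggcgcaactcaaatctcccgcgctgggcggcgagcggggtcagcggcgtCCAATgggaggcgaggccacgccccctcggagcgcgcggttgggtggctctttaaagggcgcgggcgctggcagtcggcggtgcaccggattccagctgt
E2f2: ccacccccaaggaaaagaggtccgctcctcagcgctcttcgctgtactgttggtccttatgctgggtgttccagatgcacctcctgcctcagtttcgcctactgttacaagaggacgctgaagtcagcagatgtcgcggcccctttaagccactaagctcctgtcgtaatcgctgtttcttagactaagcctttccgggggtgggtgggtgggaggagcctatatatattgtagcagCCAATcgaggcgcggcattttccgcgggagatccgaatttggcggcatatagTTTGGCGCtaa
Bub1b: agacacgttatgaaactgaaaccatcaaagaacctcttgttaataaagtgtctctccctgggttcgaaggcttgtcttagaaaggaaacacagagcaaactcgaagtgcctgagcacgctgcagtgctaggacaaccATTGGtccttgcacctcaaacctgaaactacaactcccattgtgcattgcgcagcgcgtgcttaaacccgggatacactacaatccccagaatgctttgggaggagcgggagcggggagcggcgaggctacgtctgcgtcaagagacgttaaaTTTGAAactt
Cdk1: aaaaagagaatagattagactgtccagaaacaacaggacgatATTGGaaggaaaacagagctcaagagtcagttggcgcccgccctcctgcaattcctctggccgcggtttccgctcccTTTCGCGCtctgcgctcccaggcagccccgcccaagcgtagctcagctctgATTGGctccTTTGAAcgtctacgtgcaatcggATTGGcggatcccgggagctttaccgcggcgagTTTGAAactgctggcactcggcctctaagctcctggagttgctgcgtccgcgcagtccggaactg

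Mcm6 held a TTTGGCGC that starts 110 bases before the start site, overlapped by a TTTCGCGC on the other strand, a further TTTGGCGC 47 bases before it and 2 CCAAT boxes. Rrm2, called in the opposite direction, held 1 CCAAT and none of the E2F letters in this window. E2f2 held a TTTGGCGC 40 bases into the transcript and a CCAAT; a second window of E2f2, at a later start site and not shown, held TTTGAA and CCAAT but none of the E2F letters. Bub1b held 1 TTTGAA and 1 CCAAT, and Cdk1 held 2 TTTGAA, 3 CCAAT and a TTTCGCGC. The windows of Tk1, Nusap1 and Ccne1 and the more upstream of the 2 windows of Ccnd3 held none of these letters.

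Windows were found for 43 members; 11 had none in the table: Aurkb, Ccna2, Ccnd1, Ccnd2, Ccne2, Foxm1, Gins1, Gins2, Mcm4, Pole and Tpx2. E2F letters stood in 40.0% of the 20 windows of the replication genes, 22.2% of the 9 windows of the G1/S regulators and 5.56% of the 18 windows of the mitosis genes, against 1.84% of all 32851 windows of this length. TTTGAA stood in 20.0%, 11.1% and 72.2% of the windows of the 3 groups, against 17.9% of all windows. CCAAT stood in 70.0%, 44.4% and 88.9%, against 37.4%. In these windows the E2F letters were more frequent among S-phase genes and the CHR letters among M-phase genes. CHR and CCAAT together stood in the windows of 4 of the 5 mitosis genes called higher, in that of the 1 called lower, and in 66.7% of the 12 windows of mitosis genes that were not called. A match is a description of the letters and not evidence of a bound site.

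Of the 54 genes, 11 were called higher and 6 lower in R882H, together 31.5%. Among all tested genes the share called was 38.8%, with 19.3% higher and 19.4% lower, and among the 8504 tested genes that averaged 10 CPM or more it was 39.1%. The share called among the replication genes was 27.3% (4 higher, 2 lower of 22), among the mitosis genes also 27.3% (5 higher, 1 lower of 22), and 5 of the 10 G1/S regulators were called (2 higher, 3 lower). The shares called among replication and mitosis genes lay below that of all tested genes, a difference that was not tested, and calls in all 3 groups went both ways.

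The changes were small. Only Ccnd1 and E2f2 had estimates of at least 2-fold, 3.70% of the members, against 14.8% of all tested genes and 7.93% of those with at least 10 CPM. The median absolute log2 fold change was 0.26 for replication, 0.35 for the G1/S regulators and 0.21 for mitosis, beside 0.36 over all tested genes and 0.30 over those with at least 10 CPM. The median signed change was 0.09, -0.03 and 0.13 in the same order, beside 0.01 over all tested genes. For all 22 replication genes and all 22 mitosis genes the 95% interval of the change stayed within 2-fold in either direction, that of Tk1 only just. Within 1.5-fold stayed the intervals of 15 of 22 replication, 5 of 10 G1/S and 16 of 22 mitosis genes.

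**Figure D1:**
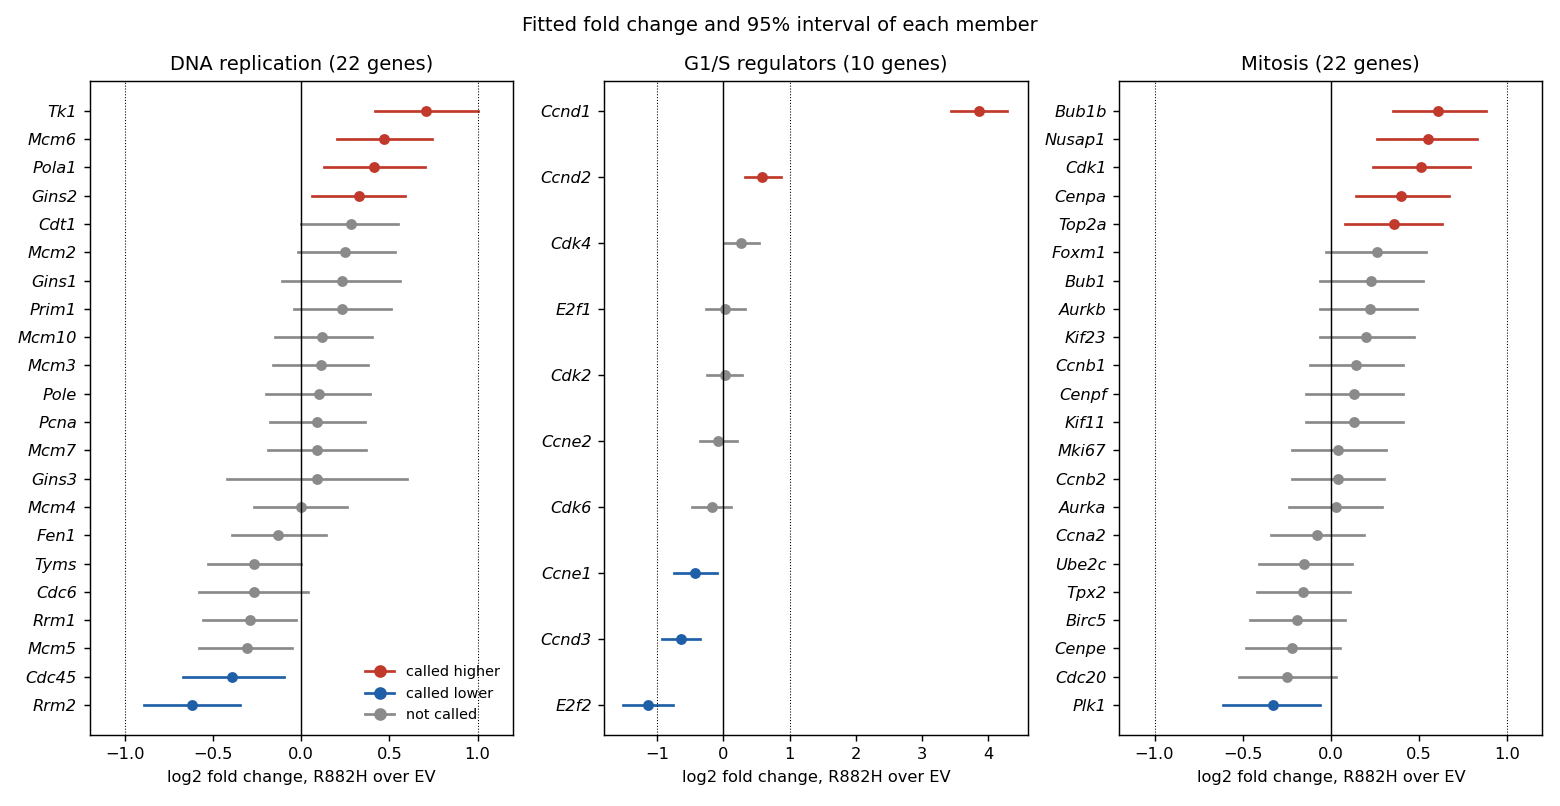
Fitted log2 fold change of R882H over EV for each of the 54 genes, in 3 panels by group; points are edgeR estimates from 2 libraries per group, bars are 95% intervals, colours mark calls, and dotted lines mark a 2-fold change. Ccnd1 stands apart at 3.87, and no replication or mitosis gene has an estimate beyond 0.71 in size.

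**Figure D2:**
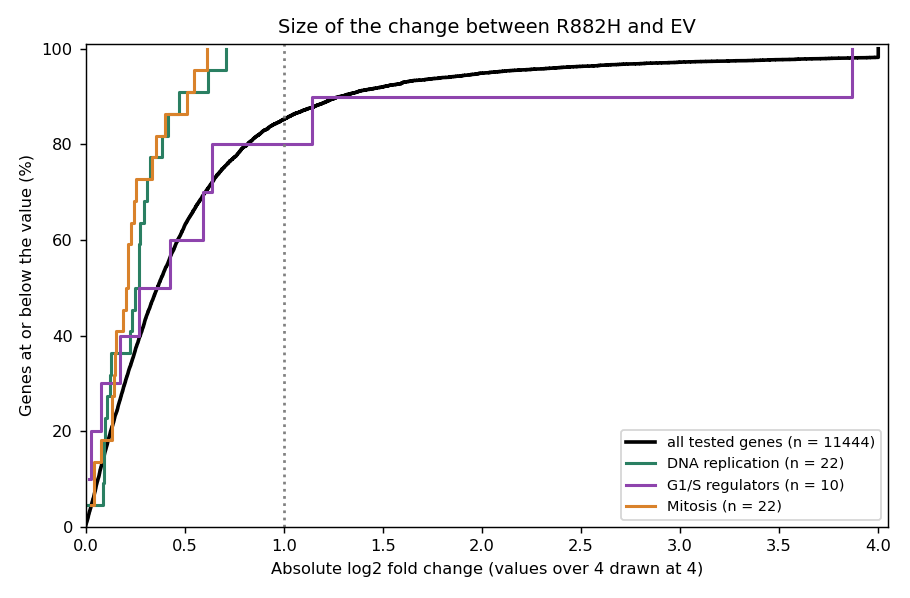
Share of genes (y axis, percent) whose absolute log2 fold change is at or below the value on the x axis, for all 11444 tested genes and for each group. The curves of the 22 replication and the 22 mitosis genes reach 100% before the dotted 2-fold line, where 14.8% of all tested genes lie beyond.

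Both R882H libraries lay above both EV libraries for 25 members and below them for 16, so the groups did not overlap for 41 of 54; the same was true of 69.1% of all tested genes. Within a group, the median absolute difference between the 2 libraries over the members was 0.11 on the log2 scale in EV and 0.08 in R882H. It was 0.20 and 0.16 over all tested genes and 0.17 and 0.13 over those with at least 10 CPM. Neither of these sets was matched to the members in level, so the values are not compared at equal depth. Summed over the group, replication genes had 3992 and 4117 CPM in EV and 4258 and 4535 CPM in R882H. Mitosis genes had 3742 and 3636 CPM in EV and 3851 and 4091 CPM in R882H. The ratio of the mitosis sum to the replication sum was 0.937 and 0.883 in EV and 0.904 and 0.902 in R882H. Both sums were higher in R882H, and their ratio in R882H lay between the 2 EV values. A few genes carried much of each rise. Among replication genes, Mcm6 averaged 464.1 CPM in EV and 643.3 in R882H, and Tk1 229.0 and 374.5. Among mitosis genes, Cdk1 averaged 377.5 and 538.4 CPM, and Top2a 446.6 and 571.4. The sums averaged 4054.8 and 4396.3 CPM for replication and 3689.1 and 3970.9 CPM for mitosis. Estimates lay below 0 for 8 of 22 replication and 7 of 22 mitosis genes.

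Of the 6 subunits of the helicase ring, 1 was called. Mcm6 (ENSMUSG00000026355, chr1:128331590-128359664) had 467.3 and 460.9 CPM in EV and 653.4 and 633.2 CPM in R882H. Its change was 0.47 ± 0.13 (edgeR quasi-likelihood test, Benjamini-Hochberg adjusted p = 0.00539). The groups were far apart beside the small gaps within each group. With R882H replicate 1 or 2 left out the call was lost, while the change stood at 0.46 and 0.51. Mcm7, which with Mcm6 had the most counts in the group, had 510.0, 552.1, 524.7 and 605.1 CPM in the 2 EV and the 2 R882H libraries, and the groups overlapped (0.09 ± 0.14). Mcm5, which was not called, had 247.2 and 279.1 CPM in EV and 213.2 and 210.8 CPM in R882H, -0.31 ± 0.13 with an edgeR adjusted p of 0.0580. Leaving out EV replicate 1 gave Mcm5 an adjusted p of 0.0139. Mcm2 stood at 0.25 ± 0.13, Mcm3 at 0.11 ± 0.13 and Mcm4, whose groups overlapped, at -0.00 ± 0.13.

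Of the factors that load and activate the ring, 1 was called lower and 1 higher. Cdc45 (ENSMUSG00000000028, chr16:18780447-18811987), which joins the ring to make the active helicase, fell from 64.6 and 57.2 CPM to 46.3 and 46.7 CPM, a change of -0.39 ± 0.14 (edgeR, Benjamini-Hochberg adjusted p = 0.0280). Gins2 (ENSMUSG00000031821, chr8:120578633-120589304), a subunit of its partner complex GINS, rose from 189.4 and 173.2 CPM to 227.2 and 227.8 CPM, 0.33 ± 0.13 (adjusted p = 0.0445). The libraries of the groups did not overlap for either gene, but both calls were weak. With EV replicate 1 left out, Cdc45 had an adjusted p of 0.113, and with R882H replicate 1 or 2 left out, 0.169 and 0.159. With EV replicate 2 left out, Gins2 had an adjusted p of 0.120, and with R882H replicate 1 or 2 left out, 0.200 and 0.196. Gins2 shares 2758 exon bases, its 3′ end included, with Gse1 on the opposite strand, whose counts (949, 929, 1326 and 1257) followed those of Gins2 (1033, 981, 1358 and 1298). Reads of this pair cannot be told apart. The other GINS subunits were not called, Gins1 at 0.23 ± 0.16 and Gins3, the lowest replication gene at 8.65 to 10.4 CPM, at 0.09 ± 0.25. The loaders were not called: Cdt1 stood at 0.28 ± 0.14, called without EV replicate 2 (adjusted p = 0.0194), and Cdc6 stood at -0.27 ± 0.15. Mcm10, which helps to start the helicase, stood at 0.12 ± 0.14.

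At the fork itself, Pola1 (ENSMUSG00000006678, chrX:93304767-93632155), the catalytic subunit of the polymerase that lays down primers with primase, had 45.5 and 42.7 CPM in EV and 60.1 and 57.4 CPM in R882H. It rose by 0.41 ± 0.14 (edgeR, Benjamini-Hochberg adjusted p = 0.0200). Its libraries did not overlap, but leaving out EV replicate 2 gave an adjusted p of 0.0778, and leaving out R882H replicate 1 or 2 gave 0.135 and 0.0722. The primase subunit Prim1 stood at 0.23 ± 0.14 and was not called. Pole, the leading-strand polymerase, stood at 0.10 ± 0.14, the sliding clamp Pcna at 0.09 ± 0.13 with overlapping libraries, and the flap nuclease Fen1, which trims Okazaki fragments, at -0.13 ± 0.13. For these 3 the 95% intervals ran from -0.20 to 0.39, from -0.18 to 0.36 and from -0.39 to 0.14.

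The widest changes among replication genes were those of Tk1 and Rrm2, both genes of nucleotide supply, and these went in opposite directions. Tk1 (ENSMUSG00000025574, chr11:117815526-117826092), the thymidine kinase of the salvage route, had 236.9 and 221.0 CPM in EV and 317.4 and 431.6 CPM in R882H. It rose by 0.71 ± 0.14 (edgeR, Benjamini-Hochberg adjusted p = 0.000136), with the R882H libraries further from each other than the EV libraries were. Without R882H replicate 2, the higher of them, the change was 0.49 and the adjusted p 0.0508. Rrm2 (ENSMUSG00000020649, chr12:24708241-24714146), the regulated subunit of ribonucleotide reductase, which makes deoxynucleotides, had 225.9 and 260.0 CPM in EV and 153.6 and 163.1 CPM in R882H. It fell by 0.62 ± 0.13 on the log2 scale, a 1.53-fold decrease (adjusted p = 0.000321), and was the only replication gene whose call held in every alternative run. Rrm1, the large subunit, went the same way at -0.29 ± 0.13 (adjusted p = 0.0706), from 236.4 and 248.7 CPM to 196.1 and 199.6 CPM, and was called without EV replicate 1 (adjusted p = 0.0371). Tyms, the thymidylate synthase of the other route to thymidine nucleotides, stood at -0.27 ± 0.13 and was not called (adjusted p = 0.101).

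Among the G1/S regulators were the 2 largest changes of the 54, in Ccnd1 and E2f2. All 3 D-type cyclins, which answer to growth signals, were called. Ccnd1 (cyclin D1, ENSMUSG00000070348, chr7:144929931-144939925) had 22 and 23 counts in EV and 356 and 337 in R882H, which is 4.03 and 4.06 CPM against 59.6 and 59.2 CPM. The rise was 14.6-fold, 3.87 ± 0.21 on the log2 scale (edgeR quasi-likelihood test, Benjamini-Hochberg adjusted p = 8.15e-17), and replicates were almost equal. Ccnd1 shares 1100 exon bases, its 3′ end included, with LTO1 on the opposite strand, which had 59 and 62 counts in EV and 378 and 386 in R882H. LTO1 was called higher too (2.59, adjusted p = 2.89e-14), and reads from the shared bases cannot be told apart.

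Ccnd2 (cyclin D2, ENSMUSG00000000184, chr6:127125162-127152193) had 241.5 and 205.8 CPM in EV and 352.4 and 322.1 CPM in R882H. It rose by 0.59 ± 0.13 (edgeR, Benjamini-Hochberg adjusted p = 0.000602). Ccnd3 (cyclin D3, ENSMUSG00000034165, chr17:47505051-47599691) moved the other way, with 250.5 and 340.7 CPM in EV and 191.4 and 187.8 CPM in R882H, -0.64 ± 0.14 (adjusted p = 0.000435). No library of one group reached into the other for either gene, although EV replicate 2 lay well above EV replicate 1 for Ccnd3. Bysl, on the opposite strand, shares 361 exon bases with Ccnd3 and touches the end of some of its transcripts; it had 1729 and 2306 counts in EV and 1394 and 1369 in R882H, a pattern like that of Ccnd3. Calls of all 3 D cyclins held in each alternative that tested them. The alternative without genes with overlapping exons removed all 3, so the part of shared reads in these calls was not tested.

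Because the 3 D cyclins bind the same kinases, their counts were also set against each other. Cyclin D1 made up 0.813% (exact 95% interval 0.510 to 1.23) and 0.737% (0.468 to 1.10) of all cyclin D counts in EV, and 9.87% (8.92 to 10.9) and 10.4% (9.36 to 11.5) in R882H. Cyclin D2 made up 48.7% (46.8 to 50.6) and 37.4% (35.7 to 39.1) in EV and 58.4% and 56.6% in R882H. Cyclin D3 went from 50.5% (48.6 to 52.4) and 61.9% (60.1 to 63.6) to 31.7% and 33.0%. Cyclin D2 was the most counted D cyclin in both R882H libraries and cyclin D3 in EV replicate 2, while in EV replicate 1 the intervals of these 2 cyclins overlapped. The intervals cover counting error only, and these shares carry the shared reads of Ccnd1 and Ccnd3 named above. Ccnd2 also shares 372 exon bases, away from its 3′ ends, with Gm43126 on the opposite strand. That gene had 256 and 234 counts in EV and 327 and 272 in R882H.

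The kinases that the cyclins bind changed less. Cdk6, the member with the most counts, had 1076 and 1174 CPM in EV and 1127 and 866.5 CPM in R882H; the groups overlapped, with R882H replicate 2 the lowest library (-0.17 ± 0.15). Cdk4 had 283.1 and 278.5 CPM in EV and 329.5 and 349.0 CPM in R882H. Its libraries did not overlap, but the change of 0.27 ± 0.13 was not called (edgeR, Benjamini-Hochberg adjusted p = 0.0969), the largest among uncalled G1/S regulators. Cdk2, the partner of cyclin E, stood at 0.02 ± 0.13 with a 95% interval of -0.25 to 0.28.

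Further along the route, E2f2 (ENSMUSG00000018983, chr4:136172394-136196057), an activator E2F, had 165 and 246 counts in EV and 92 and 103 in R882H, which is 30.3 and 43.4 CPM against 15.4 and 18.1 CPM. It fell, with a log2 fold change of -1.14 ± 0.19 and a 95% interval that reached -0.76 (edgeR, Benjamini-Hochberg adjusted p = 7.78e-06), and the groups did not overlap. Without EV replicate 2, the higher of the EV libraries, the change was -0.86, under 2-fold but still called. E2f1, a further activator E2F, stood at 0.03 ± 0.14, with 52.8 and 49.1 CPM in EV and 49.4 and 54.6 CPM in R882H. Ccne1 (cyclin E1, ENSMUSG00000002068, chr7:38097984-38107534) had 45.7 and 40.6 CPM in EV and 29.1 and 35.1 CPM in R882H, -0.43 ± 0.16 (adjusted p = 0.0342). That call was lost without EV replicate 1 (adjusted p = 0.132) and without R882H replicate 1 (adjusted p = 0.351). Ccne2 (cyclin E2) stood at -0.08 ± 0.14 with overlapping libraries.

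**Figure D3:**
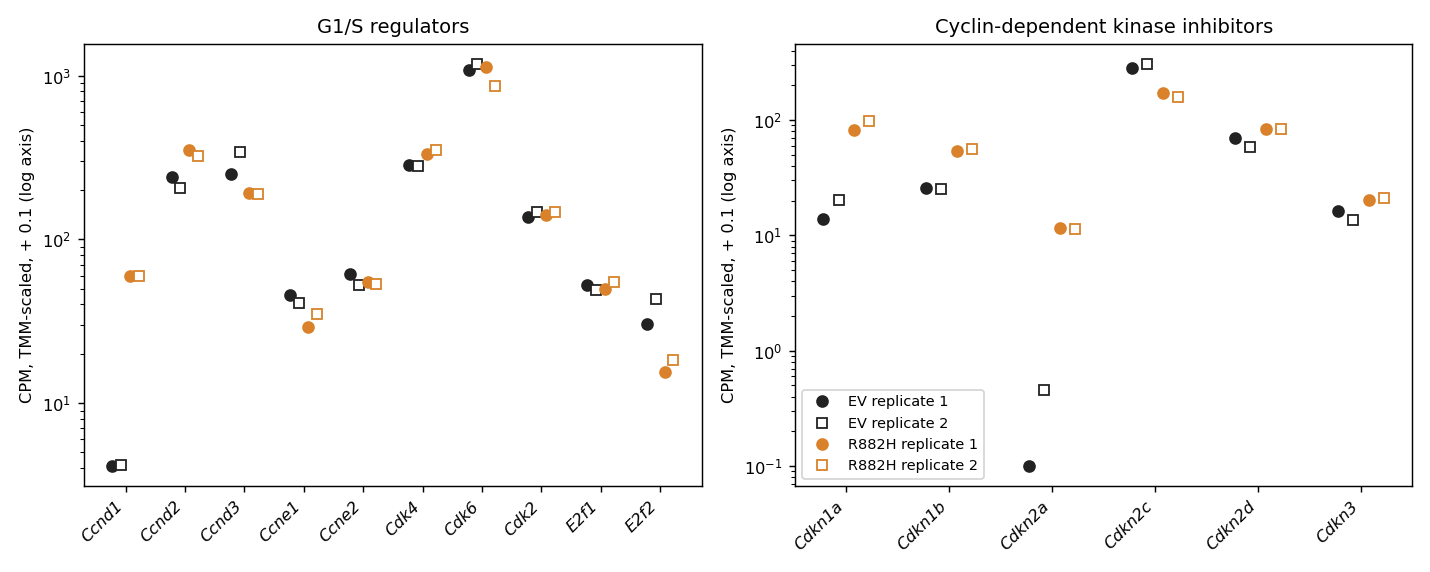
Levels in each of the 4 libraries (y axis, TMM-scaled CPM plus a small constant, log scale) of the 10 G1/S regulators and of the 6 tested inhibitors of cyclin-dependent kinases. Cyclin D1 lies near 4 CPM in both EV libraries and near 59 CPM in both R882H libraries, while Cdk2 and E2f1 overlap between the groups.

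The mitosis genes showed smaller changes, most of them upward among those called. The kinase Cdk1 (ENSMUSG00000019942, chr10:69335146-69352938), the engine of mitotic entry, had 407.3 and 347.7 CPM in EV and 526.1 and 550.7 CPM in R882H. It rose by 0.51 ± 0.14 (edgeR quasi-likelihood test, Benjamini-Hochberg adjusted p = 0.00287), and the libraries of the groups did not overlap; without R882H replicate 2 the adjusted p was 0.0547. Its cyclin partners did not pass the test: Ccnb1 stood at 0.14 ± 0.13, Ccnb2 at 0.04 ± 0.13 and Ccna2 at -0.08 ± 0.13. The 95% intervals of these 3 cyclins ran from -0.34 at the lowest to 0.41 at the highest. Foxm1, a factor that activates transcription of mitotic genes, had 47.1 and 53.5 CPM in EV and 61.2 and 59.0 CPM in R882H. At 0.26 ± 0.14 (adjusted p = 0.146) it had the largest change among the mitosis genes that were not called.

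The kinases of mitosis did not move as a set. Plk1 (ENSMUSG00000030867, chr7:122159439-122169873), which acts from mitotic entry to cytokinesis, was the 1 mitosis gene called lower, with 329.9 and 373.5 CPM in EV and 256.8 and 301.2 CPM in R882H. Its change of -0.33 ± 0.13 was close to the limit (edgeR, Benjamini-Hochberg adjusted p = 0.0478). Leaving out EV replicate 2 gave an adjusted p of 0.151, and leaving out R882H replicate 1 or 2 gave 0.493 and 0.102. The Aurora kinases were not called, Aurka at 0.03 ± 0.13 and Aurkb at 0.22 ± 0.14. Birc5 (survivin), which works with Aurkb in the chromosomal passenger complex, stood at -0.19 ± 0.13.

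In the spindle checkpoint, Bub1b (BubR1, ENSMUSG00000040084, chr2:118598211-118641591) had 83.4 and 78.7 CPM in EV and 126.3 and 121.8 CPM in R882H. It rose by 0.61 ± 0.13, 1.53-fold (edgeR, Benjamini-Hochberg adjusted p = 0.000300). The replicates of each group lay close together, and this was the only mitosis gene whose call held in each of the 13 alternatives. Its paralog Bub1 stood at 0.23 ± 0.14 and was not called. Cdc20, the target of the checkpoint, had 172.0 and 206.0 CPM in EV and 152.4 and 166.2 CPM in R882H, -0.25 ± 0.13 (adjusted p = 0.144), and was called without EV replicate 1 (adjusted p = 0.0243). Ube2c, which works with Cdc20 to mark cyclins for destruction, stood at -0.15 ± 0.13.

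On chromosomes and the spindle, 3 genes were called higher. Nusap1 (ENSMUSG00000027306, chr2:119618298-119651244), a microtubule-binding spindle protein, had 55.0 and 45.2 CPM in EV and 68.8 and 77.6 CPM in R882H, 0.55 ± 0.14 (edgeR, Benjamini-Hochberg adjusted p = 0.00221). Cenpa (ENSMUSG00000029177, chr5:30666777-30674830), the histone variant that marks centromeres, had 144.5 and 135.2 CPM in EV and 185.2 and 184.5 CPM in R882H, 0.40 ± 0.13 (adjusted p = 0.0135). Top2a (ENSMUSG00000020914, chr11:98992943-99024189), the topoisomerase that untangles sister chromatids, had 446.2 and 447.1 CPM in EV and 543.0 and 599.8 CPM in R882H, 0.36 ± 0.13 (adjusted p = 0.0345). No EV library reached an R882H library for any of the 3, but each call was lost when a single R882H library was left out. Without R882H replicate 1 the adjusted p was 0.110 for Cenpa and 0.105 for Top2a, and without R882H replicate 2 it was 0.0558 for Nusap1, 0.0949 for Cenpa and 0.300 for Top2a. The motors and spindle factors Kif11 (0.13 ± 0.13), Kif23 (0.20 ± 0.13) and Tpx2 (-0.16 ± 0.13) were not called, nor were the kinetochore proteins Cenpe (-0.22 ± 0.13) and Cenpf (0.13 ± 0.14). Mki67, whose protein Ki-67 is the standard marker of cycling cells, had 213.6, 212.0, 212.3 and 225.9 CPM in the 2 EV and the 2 R882H libraries. The groups overlapped, and the 95% interval of its change ran from -0.22 to 0.31.

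**Figure D4:**
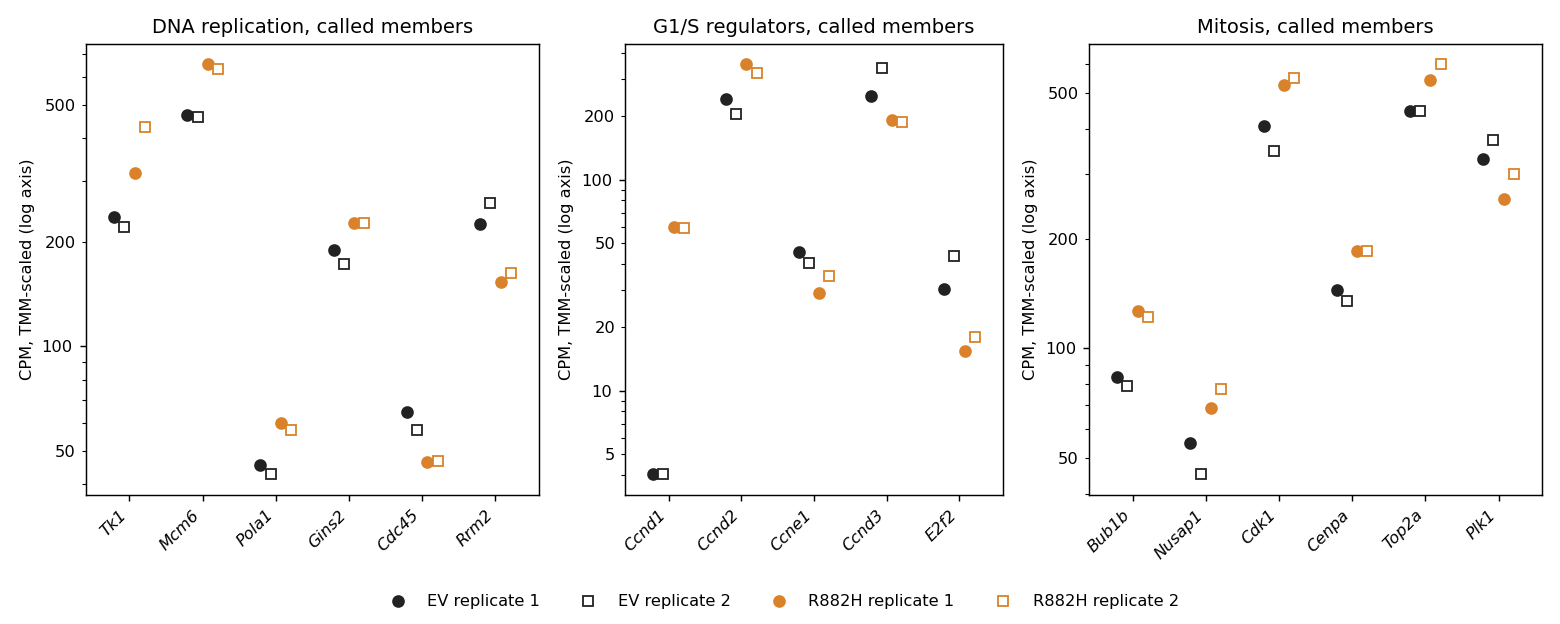
Level of each of the 17 called genes in each of the 4 libraries (y axis, TMM-scaled CPM on a log scale), by group; filled points are replicate 1 and open squares replicate 2. The 2 R882H points lie on one side of the 2 EV points for each gene, for example between 121.8 and 126.3 CPM against 78.7 and 83.4 CPM for Bub1b.

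Further genes of the same pathways also went both ways. Of 48 other replication genes, 7 were called higher and 2 lower (18.8%). Prim2, the large primase subunit, rose by 0.99 ± 0.17 and Cdc7, the kinase that fires origins, by 0.78 ± 0.17 (edgeR, Benjamini-Hochberg adjusted p = 2.20e-05 and 0.000508). Gmnn (geminin), the inhibitor of Cdt1, rose by 0.44 ± 0.13, and Chaf1b, of the chromatin assembly factor behind the fork, fell by 0.54 ± 0.13, as did Pold2, a subunit of the lagging-strand polymerase, by 0.42 ± 0.13. Of 70 other mitosis genes, 13 were called higher and 6 lower (27.1%). The kinetochore gene Cenph rose by 0.77 ± 0.14, Gtse1, which binds microtubule ends, by 0.72 ± 0.13 and the kinesin Kif15 by 0.57 ± 0.13, while the kinesin Kif20b fell by 0.92 ± 0.21 and Spc24, of the Ndc80 complex, by 0.54 ± 0.14. The median log2 fold change was 0.10 over the 48 and 0.07 over the 70, beside 0.01 over all tested genes. Both shares lay below the 38.8% of all tested genes, a difference that was not tested.

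Among 17 tested regulators of the E2F, retinoblastoma and DREAM system, 3 were called higher and 2 lower (29.4%, beside 38.8% of all tested genes). Mybl2, which activates mitotic genes with the MuvB core, fell by 0.96 ± 0.14, from 112.4 and 143.5 CPM to 65.9 and 65.7 CPM (edgeR, Benjamini-Hochberg adjusted p = 9.79e-07). E2f8, an E2F repressor, fell by 0.84 ± 0.14, while E2f7, the related repressor, rose by 1.22 ± 0.22 and Tfdp2, a dimerisation partner of E2Fs, by 0.98 ± 0.22. Of 7 genes for histone supply, Asf1b, a histone chaperone, was called lower (-0.39 ± 0.13, adjusted p = 0.0182) and none higher (14.3% called). All 6 tested inhibitors of cyclin-dependent kinases were called in edgeR, 5 higher and 1 lower; the number was 5 or 4 in 10 of the 13 alternatives, DESeq2 (4) among them. Cdkn1a (p21) rose by 2.40 ± 0.17 and Cdkn1b (p27) by 1.11 ± 0.16, and Cdkn2c (p18) fell by 0.84 ± 0.13. Cdkn2a had 0 and 2 counts in EV and 69 and 64 in R882H. It had enough counts for a test in R882H only, so the direction of its call was largely fixed in advance. Any part of the inhibitors in the values of the 54 genes was not tested.

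The calls differed in how far they held under other settings and with single libraries left out. Of the 17 called genes, 6 kept the call in every alternative in which they were tested: Rrm2, Ccnd1, Ccnd2, Ccnd3, E2f2 and Bub1b. The run without overlapping genes removed Ccnd1, Ccnd2, Ccnd3, Gins2, Cdc45, Tk1 and Nusap1, so no alternative tested their calls for shared reads. The 11 called genes other than the 6 that kept it lost the call in at least 1 alternative. Most often this was when an R882H library was left out, and none of the called genes changed sign. A lost call did not always go with a changed estimate. Without R882H replicate 1 or 2, Mcm6 stood at 0.46 and 0.51 and Cenpa at 0.41 and 0.42, beside 0.47 and 0.40 with all libraries. Tk1 moved more, to 0.93 and 0.49, beside 0.71. Calls over all tested genes also fell in these runs. DESeq2 in place of edgeR gave adjusted p-values of 0.142 for Pola1, 0.147 for Cdc45, 0.0958 for Gins2, 0.176 for Ccne1 and 0.0718 for Plk1. Scaling by library size alone gave Gins2 0.0527 and Mcm5 0.0403. Of the 37 uncalled genes, 4 were called in at least 1 alternative (Mcm5, Rrm1, Cdt1 and Cdc20) and 10 changed sign in at least 1. The exons of 16 members, 7 of them called, overlap those of another gene with counts, and for 9, 3 of them called (Gins2, Ccnd1 and Ccnd3), the overlap touches the last 500 bases of a coding transcript, where 3′ tags fall.

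**Figure D5:**
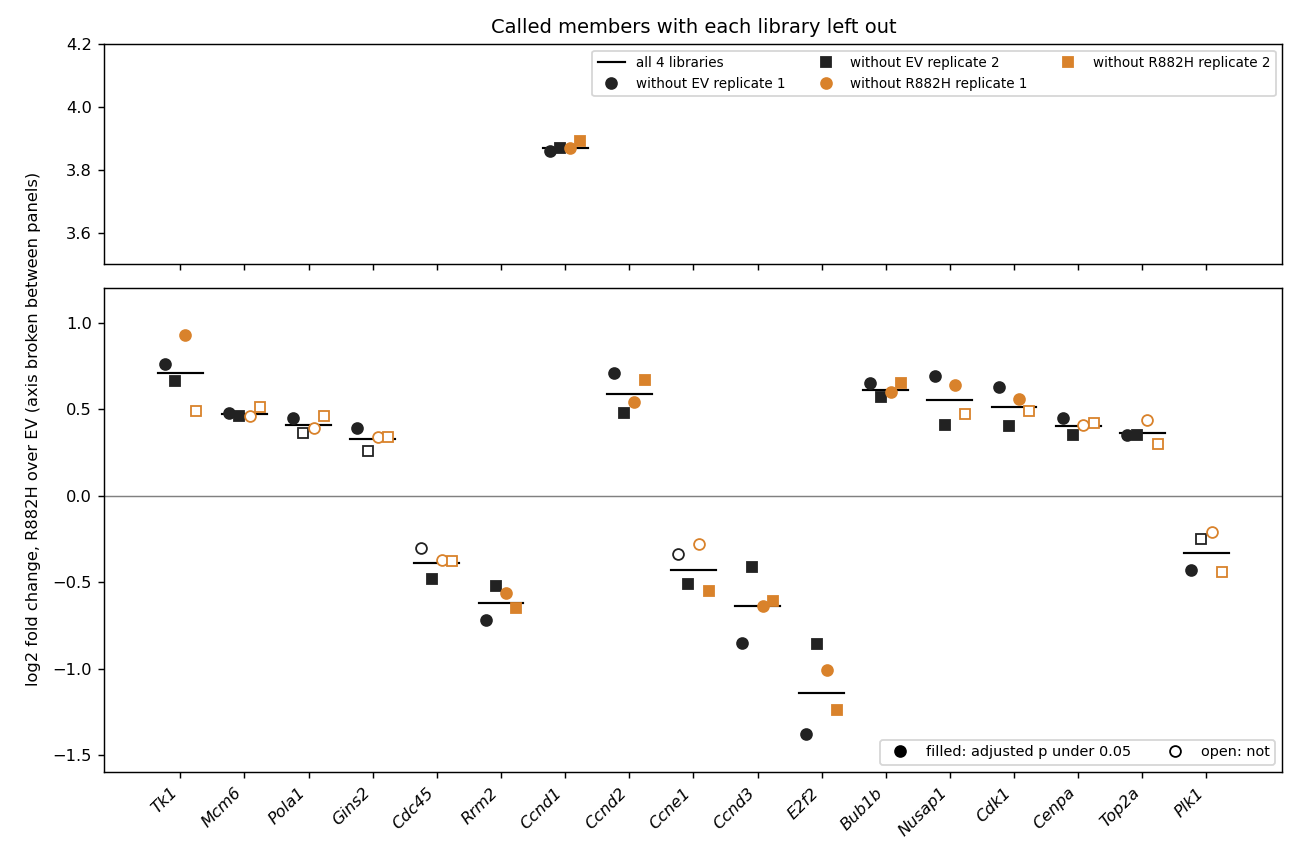
Log2 fold change of the 17 called genes (y axis, broken between the panels) with all 4 libraries (bars) and with each library left out (points); filled points have an edgeR adjusted p under 0.05. No point crosses 0, and Plk1 ranges from -0.44 to -0.21 with 3 of its 4 points open.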

How the data were processed

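RNA of 4 Hoxb8 cell libraries (EV, n = 2; R882H, n = 2) was profiled by QuantSeq 3′ tag sequencing, per the labels. The authors deposited raw counts per Ensembl gene, with 1 column per library. The submitters' processing notes name the build mm10, featureCounts with Subread 2.0.0, HISAT2 2.0.4, cutadapt 1.14, bcl2fastq 2.17.1.14, limma 3.48.3 and edgeR 3.34.0. Which annotation and strand setting were used, and how reads that fit several genes were treated, is not given in the sources used here.

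Symbols and positions came from GENCODE M21, which uses the assembly of mm10, for 52489 of the 52636 gene lines; 2 listed symbols were matched through RefSeq synonyms. In R 4.3.3, edgeR 4.0.16 filtered the counts (filterByExpr), scaled them by TMM and fitted them with a robust glmQLFit. P-values of glmQLFTest for the 11444 genes left were adjusted by Benjamini and Hochberg, with a call under 0.05. Each SE is the size of the log2 fold change divided by the root of its F statistic. The common biological coefficient of variation was 0.0957. Replicates of a group differed by more than counting error, with a chi-square per degree of freedom of 6.91 in EV and 4.61 in R882H. A count of 0 allows up to 3 counts. Alternatives changed the scaling, filter, dispersion, tool (DESeq2 1.42.0, limma-voom 3.58.1), replicate block, libraries and overlapping genes.

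The members and all lists were chosen with earlier results of these data known, so their counts are descriptions. The division of the S-phase genes into replication genes and G1/S regulators was made for this work. Values in every library are printed for called members, the 2 with the most counts in each group and the uncalled member with the largest change; Rrm1, E2f1, Cdc20 and Mki67 were added after their values were seen. From other pathway lists, up to 4 called genes with the smallest p and up to 2 of the opposite direction are named. Promoter windows were limited to 3 called members per group with the smallest p; 5 of them that hold a match are printed.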

Additional observations from a re-analysis of the deposited data

How the results depend on the processing

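Of the 13 alternatives, 2 changed no member's call or sign: the filter at 10 counts in every library of a group, and limma-voom. With DESeq2, 2 replication genes were higher and 1 lower, and no mitosis gene was lower; over all tested genes 1300 were higher and 1416 lower, and 4 of the other replication genes, 9 of the other mitosis genes and 0 of the histone supply genes were called. With genes left out that share exon bases with another gene, which removes members, 2 replication genes and 0 G1/S regulators were higher, and 3 E2F system genes were called. The 1 mitosis gene called lower, Plk1, was lost (0 lower) without a low-count filter, with a non-robust fit and with the replicate block. With 1 library left out at a time, in which case the lone library of a group is assumed to vary like the others, 0 to 4 replication genes were higher and 1 to 3 lower, 1 to 5 mitosis genes higher and 0 to 2 lower, and over all tested genes 1508 to 2065 were higher and 1446 to 2168 lower. The called numbers were 3 to 9 for the other replication genes, 9 to 16 for the other mitosis genes and 0 to 2 for histone supply. Why the counts moved was not tested, beside the smaller number of libraries. Signs turned for 10 members near 0, none of them called: without a low-count filter Mcm4 was at 0.002, and with 1 library left out the ranges were -0.059 to 0.075 for Mcm4, -0.002 to 0.20 for Mcm7, -0.023 to 0.22 for Gins3, -0.18 to 0.027 for Ccne2, -0.044 to 0.073 for Cdk2, -0.36 to 0.018 for Cdk6, -0.031 to 0.11 for E2f1, -0.15 to 0.020 for Ccna2, -0.033 to 0.11 for Aurka and -0.019 to 0.29 for Cenpf. Same-numbered libraries did not deviate together over the genes (correlation -0.0026). With 2 libraries per group this cannot tell whether same-numbered libraries shared a culture or day, which the labels do not give. With the replicate block 3 replication genes were higher and 2 lower, and 2 G1/S regulators higher and 3 lower. In that run 4 mitosis genes were higher and 0 lower. The calls of Gins2, Top2a and Plk1 were lost with the block (adjusted p = 0.0516, 0.0528 and 0.0521 in edgeR). Depth limits the lowest members most: Gins3, with 49 to 62 counts per library, had an SE of 0.25 against a median of 0.13 over the members.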

Other observations

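Some members that were not called share exon bases with a neighbour on the opposite strand. Fen1 shares 1909 bases with Gm10143, and their counts were nearly equal in each library: 1188, 1089, 1123 and 1068 for Fen1 beside 1174, 1071, 1115 and 1054 for Gm10143. Cdc20 shares 53 bases at its 3′ end with Elovl1, which was called lower (-0.40, edgeR quasi-likelihood test, Benjamini-Hochberg adjusted p = 0.0159), while Cdc20 was not. Cdk2 shares 34 bases away from its 3′ ends with Pmel, which was also called lower (-1.22, adjusted p = 2.61e-06), and Cdk2 stood at 0.02 ± 0.13.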
